A study of Mus musculus with 4 samples.

Results

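The genes described here encode 10 components of PRC1.6, a variant Polycomb repressive complex 1: *E2f6*, *Tfdp1*, *Mga*, *Max*, *L3mbtl2*, *Pcgf6*, *Ring1*, *Rnf2*, *Cbx3* and *Wdr5*. They were matched by gene symbol and are 10 of the 32285 genes in the count matrices. The matrices hold droplet-based single-cell RNA-seq (10x Genomics 3′ chemistry) of testes from 15-day-old mice, an age at which the first wave of spermatogenesis runs from undifferentiated spermatogonia to pachytene spermatocytes. The study asked what MEIOC, a protein that acts on RNA, does to transcripts as male germ cells pass from mitosis to meiosis. There were 2 wild-type and 2 *Meioc*-null libraries, each made from the testis of 1 pup on a C57BL/6N background, and each of the 2 batches held 1 littermate pair, a wild-type and a *Meioc*-null pup. Libraries with the same replicate number were taken as such a pair, which the labels do not state outright. All the pups, controls included, were also heterozygous for an *Hspa2* allele and homozygous for an unrecombined ROSA26-tdTomato reporter, and much of the interstitium was discarded during dissociation.

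PRC1.6 differs from other Polycomb complexes in having its own DNA-binding subunits. MGA with its partner MAX binds E-box sequences and E2F6 with a DP partner binds E2F sites, and the complex places ubiquitin on histone H2A through RING1 or RNF2. It is known for keeping meiotic and other germline genes silent in embryonic stem cells and somatic cells, and loss of several of its subunits lets such genes be transcribed there.

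After filtering (more than 1000 detected genes, under 10% mitochondrial UMIs) and removal of 3367 likely doublets, 26225 of 56653 barcodes remained, 5644 to 7505 cells per library with a median of 11406.5 to 14180.5 UMIs per cell. Any pair of libraries shared 9 to 14 cell barcodes, at most 0.248% of the smaller library. The 19797 germ cells were placed on 10 clusters made from wild-type cells, with the 10 PRC1.6 genes kept out of the clustering. By their markers, cluster 1 was undifferentiated-spermatogonia-like and clusters 2 to 5 differentiating-spermatogonia-like. Cluster 6 was led by *Rec8* and *Ctcfl* and held both differentiating and preleptotene markers. Cluster 7, led by *Stra8*, was preleptotene-like, clusters 8 and 9 were early-spermatocyte-like and cluster 10, led by *Fabp9* and *Ldhc*, was pachytene-like. Cluster 10 held 192 and 346 wild-type cells. In the study's own clustering some *Meioc*-null cells were called pachytene spermatocytes. That clustering also had a separate group of *Meioc*-null spermatocytes, mainly in G2/M phase, which the paper takes as likely to include cells in an aberrant metaphase. Here such cells could only be placed in clusters of wild-type cells, and where they fell was not tested. Placed here by nearest wild-type cells, 0 of the 5001 and 4821 germ cells of *Meioc*-null replicates 1 and 2 fell in cluster 10. The comparison of genotypes therefore covers clusters 1 to 9. Sertoli-like, peritubular-myoid-like and interstitial-fibroblast-like cells served as the somatic types, of which the Sertoli-like cells were shallow, with a median of 2088.5 to 2989.0 UMIs. Levels are UMIs per 1000000 UMIs of a library's cluster (CPM). They are compared between clusters and genotypes, not between genes.

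The DNA-binding subunits had unlike courses through wild-type germ cells. *E2f6* was highest in undifferentiated spermatogonia and lowest in the early-spermatocyte-like cluster 9, while *Mga* was lower in clusters 3 to 6 than in clusters 1, 2 and 7 to 9, with its highest mean in cluster 8 and its lowest in cluster 10. *Max* was highest in the preleptotene-like cluster 7. *Tfdp1* had a trough in cluster 8.

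*E2f6*, on chromosome 12 (16810963 to 16839742, GRCm38, plus strand), encodes the E2F family member that lacks an activation domain and represses. Its wild-type level was 65.4 and 57.5 CPM in cluster 1 (replicates 1 and 2). It was 21.6 and 20.3 CPM by cluster 6, 8.59 and 5.39 CPM by cluster 7 and 4.26 and 3.20 CPM by cluster 9. The mean in cluster 1 was 16.5 times that in cluster 9, and the 2 libraries of a cluster did not overlap those of the next at the steps from 1 to 2, 2 to 3, and at each step from 5 to 9, all downward, and at the upward step from 9 to 10 (5.36 and 4.86 CPM in cluster 10). Somatic types held 9.63 to 23.7 CPM, above every wild-type library of clusters 7 to 10.

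*Tfdp1*, which encodes DP1, a dimerization partner of E2F proteins, lies on chromosome 8 (13338751 to 13378448, plus strand). The wild-type mean was 122 ± 3.4 CPM in cluster 2 (SD, n = 2, as for all wild-type means here), and 32.8 ± 8.4 CPM in cluster 7. From a low of 17.7 ± 2.7 CPM in cluster 8 it went to 44.0 ± 2.4 CPM (cluster 9) and 77.2 ± 17 CPM (cluster 10). The level in cluster 8 lay below that of every other germ-cell cluster and of all 3 somatic types, and clusters 9 and 10 were each above the cluster before them with no overlap of libraries.

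*Mga* encodes a large scaffold with both a T-box and a basic helix-loop-helix domain and lies on chromosome 2 (119897228 to 119969581, plus strand). Its wild-type mean was 174 ± 18 CPM in cluster 1 and 95.8 ± 5.8 CPM in cluster 4. It reached 169 ± 9.1 CPM in the preleptotene-like cluster 7 and 184 ± 6.8 CPM in cluster 8, and then stood at 153 ± 19 CPM (cluster 9) and 67.0 ± 3.1 CPM (cluster 10). In the order of levels 8, 1, 2, 7 and 9 each cluster overlapped the next, but the libraries of cluster 8 lay above those of clusters 2, 7 and 9, and cluster 10 was below each germ-cell cluster, with libraries overlapping none of theirs.

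*Max* encodes the shared partner of MGA, MYC and the MXD proteins and lies on chromosome 12 (76937269 to 76962201, minus strand). Its 2 wild-type libraries held 74.9 and 59.8 CPM in cluster 7, against wild-type means of 23.1 to 37.2 CPM in the other 9 germ-cell clusters and library values of 23.8 to 36.7 CPM in the somatic types. Both libraries of cluster 7 were above every other wild-type library of the germ-cell clusters and the somatic types.

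The subunits that build the complex and carry its enzymatic activity also differed in where they peaked. *Pcgf6* had the widest range of the 10 genes and was higher at each step from cluster 5 to cluster 10. *L3mbtl2* varied least. *Rnf2* and *Ring1*, the 2 alternative E3 ligases, were both highest in cluster 10, while the lowest mean was in cluster 8 for *Ring1* and in cluster 3 for *Rnf2*.

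*Pcgf6* encodes the PCGF subunit that distinguishes this complex from the other PRC1 forms and lies on chromosome 19 (47033617 to 47050906, minus strand). Its wild-type mean was 81.7 ± 4.9 CPM in cluster 1, 21.1 ± 0.92 CPM in cluster 2 and 4.65 ± 1.7 CPM in cluster 3. It was 13.7 ± 0.88 CPM at cluster 6, 67.0 ± 9.9 CPM at cluster 8, 135 ± 12 CPM at cluster 9 and 276 ± 4.6 CPM at cluster 10. The peak was 59.2 times the trough. The level was thus high at both ends of the order and low in between, and Sertoli-like cells, at 36.4 and 35.1 CPM, were above clusters 2 to 6.

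*L3mbtl2* encodes an MBT-domain protein that binds chromatin and holds the complex together, and lies on chromosome 15 (81663889 to 81688315, plus strand). Its wild-type mean was 35.7 ± 2.9 CPM in cluster 1 and between 52.1 and 69.1 CPM in the other 9 germ-cell clusters. Cluster 7 was above cluster 8 and cluster 10 above cluster 9 with no overlap of libraries, and the libraries of clusters 2 to 7 overlapped from each cluster to the next. Somatic libraries held 3.79 to 13.0 CPM, below every germ-cell library, the lowest of which held 33.6 CPM. In the same somatic types 5 germ-cell markers stood at 1.40 to 9.43% of their germ-cell level, a measure of free germ-cell RNA.

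*Rnf2*, on chromosome 1 (151458004 to 151500955, minus strand), and *Ring1*, on chromosome 17 (34020792 to 34024680, minus strand), encode RING1B and RING1A, the catalytic subunits. *Rnf2* had a minimum of 22.1 ± 3.2 CPM in cluster 3, stood at 83.6 ± 8.7 CPM in cluster 6 and 62.5 ± 4.2 CPM in cluster 8, and went to 105 ± 2.5 CPM (cluster 9) and 155 ± 10 CPM (cluster 10). *Ring1* was at 11.3 ± 0.079 CPM in cluster 1 and 42.4 ± 8.9 CPM in cluster 5, then at 9.28 ± 2.7 CPM (cluster 8), 12.7 ± 1.9 CPM (cluster 9) and 50.4 ± 12 CPM (cluster 10). With the somatic types in the order of levels, 2 neighbours were apart for *Ring1* and 6 for *Rnf2*, and the Sertoli-like libraries (54.1 and 41.6 CPM) overlapped those of cluster 10.

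*Cbx3* encodes HP1 gamma, which binds methylated histone H3, and lies on chromosome 6 (51470360 to 51483704, plus strand). Its wild-type mean was 445 ± 7.3 CPM in cluster 2, 199 ± 8.4 CPM at cluster 7, 113 ± 16 CPM at cluster 8 and 177 ± 0.049 CPM at cluster 10. It has 8 processed pseudogenes in the annotation, none of them among the genes of the matrices, so reads of such a copy could not be told from those of *Cbx3*. *Wdr5*, a histone-binding WD40 protein shared with the MLL complexes, lies on chromosome 2 (27515157 to 27536535, plus strand). It was at 172 ± 30 CPM in cluster 3 and between 74.5 and 93.6 CPM in cluster 1 and clusters 6 to 10, while somatic libraries, at 12.5 to 40.4 CPM, were below every germ-cell library.

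**Figure D1:**
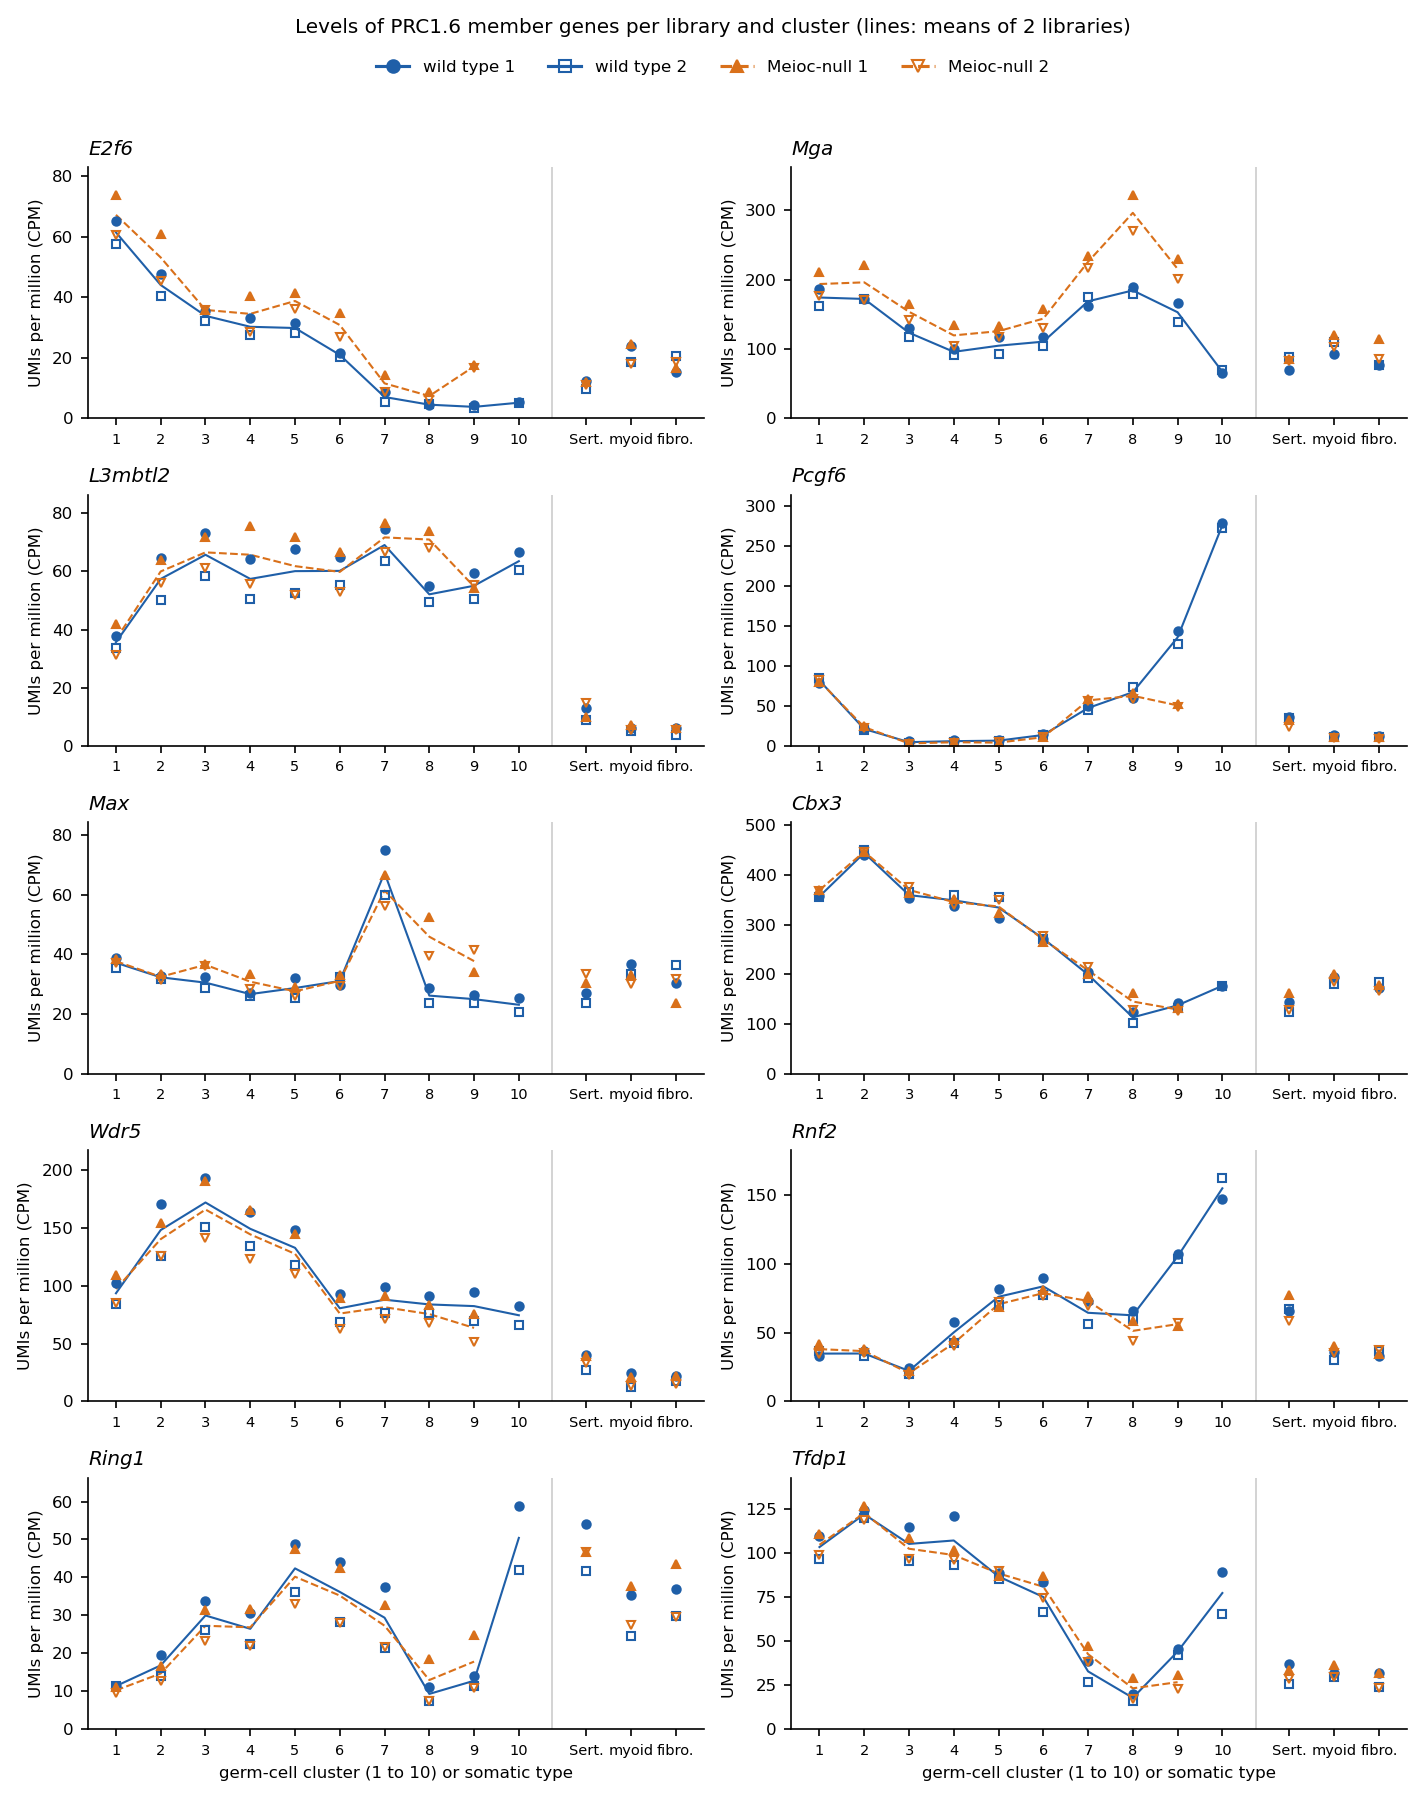
Level of each PRC1.6 gene (CPM, y axis with its own scale per gene) in germ-cell clusters 1 to 10 and the 3 somatic types (x axis). Each point is 1 library of wild type or *Meioc*-null, lines join the means of the 2 libraries of a genotype, and cluster 10 holds wild-type cells only. *Pcgf6* climbs to 276 CPM in cluster 10, *E2f6* goes from 61.4 CPM in cluster 1 to 3.73 CPM in cluster 9 in wild type, and in cluster 9 the *Meioc*-null points lie above wild type for *E2f6* and below it for *Pcgf6* and *Rnf2*.

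Across the 10 wild-type cluster means of log2 CPM, *E2f6* ran most closely with *Cbx3* (r = 0.952, n = 10 clusters) and *Tfdp1* (r = 0.803), and *Cbx3* with *Tfdp1* (r = 0.886). *Mga* and *Ring1* ran opposite to each other (r = -0.816), as did *Pcgf6* and *Wdr5* (r = -0.810). These points share libraries and depth, so the coefficients are descriptive. Of 8921 genes with at least 20 CPM in some cluster, the courses nearest to *E2f6* were those of *Rpusd1* (r = 0.993), *Elovl5* (r = 0.990) and *Poglut1* (r = 0.987), and those nearest to *Mga* were mt-Co3 (r = 0.931), *N4bp2l2* (r = 0.927) and 3830403N18Rik (r = 0.927). Nearest to *Tfdp1* were *Cox4i1* (r = 0.983), *Snrpa* and *Gpn2*, and to *Max* *Hist1h2bc* (r = 0.849), *Mon1a* and *Sap25*. For *Pcgf6* they were *Osbpl1a* (r = 0.979), *Cops5* and *G6pc3*, for *L3mbtl2* Mir9-3hg (r = 0.907), *Uba2* and *Reps1*, and for *Rnf2* *Atl1* (r = 0.965), *Ociad1* and *Dr1*. For *Ring1* they were *Tbcc* (r = 0.942), *Nelfa* and *Dnaaf2*, for *Cbx3* *Pik3r2* (r = 0.990), *Brd3* and *Galt*, and for *Wdr5* *Yars* (r = 0.976), *Aen* and *Eftud2*.

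In the spermatogonial clusters and the preleptotene-like cluster none of the 10 genes was called different between genotypes. Within each cluster UMIs were summed per library and compared by edgeR's quasi-likelihood test over all genes, and a gene was called when the Benjamini-Hochberg adjusted p was under 0.05 and the log2 fold change (wild type/*Meioc*-null) exceeded 0.1 in size. By this test, with no block, the calls among the 10 genes in clusters 1 to 7 were 0. At an unadjusted p under 0.05 there was 1 gene in each of clusters 3 and 4 (*Mga* in both), 2 in each of clusters 5 (*E2f6* and *Pcgf6*), 6 and 7 (*E2f6* and *Mga* in both), and 0 in clusters 1 and 2. DESeq2 also called 0. Of all genes tested, clusters 1 and 5 had 0% called, cluster 2 had 0.00685%, cluster 3 had 0.0402%, cluster 4 had 0.0342%, cluster 6 had 1.62% and cluster 7 had 18.9%.

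*E2f6* and *Mga* were lower in both wild-type than in both *Meioc*-null libraries of clusters 6 and 7, without passing that test. The same held for *Mga* in clusters 3 to 5, *E2f6* in clusters 3 and 5, and *Max* in clusters 3 and 4. *Pcgf6* was lower in both wild-type libraries of clusters 2 and 7 but higher in those of clusters 5 and 6. In cluster 1 *Cbx3* was lower and *Ring1* higher in both. The share of all genes with libraries so separated is not given here, so the separation alone carries no weight. *E2f6* held 21.6 and 20.3 CPM in the wild-type libraries of cluster 6 and 34.6 and 27.0 CPM in the *Meioc*-null libraries, and the log2 fold change was -0.52 ± 0.14 (± SE here and after, adjusted p = 0.0921). In cluster 7 it held 8.59 and 5.39 CPM against 14.2 and 8.80 CPM (-0.64 ± 0.28, adjusted p = 0.136). *Mga* held 117 and 104 CPM against 157 and 131 CPM in cluster 6 (-0.34 ± 0.10, adjusted p = 0.151), and 162 and 175 CPM against 234 and 218 CPM in cluster 7 (-0.35 ± 0.12, adjusted p = 0.0652). With the replicate number added to the same edgeR fit as a block, all 4 were called, with adjusted p = 0.000144 and 0.00582 for *E2f6* and 0.0021 and 0.000219 for *Mga*. The block also called *Tfdp1* in cluster 7 (-0.31, adjusted p = 0.019, against 0.19 without it). With the block the calls among the 10 genes stayed at 0 in clusters 1 to 5, where 0.463%, 0.843%, 1.5%, 0.777% and 4.78% of all genes were called in that order. The share of all genes called with the block was 13.5% in cluster 6 and 41% in cluster 7. *E2f6* in cluster 7 was called with no block as well when *Meioc*-null replicate 2 was left out (-0.87, adjusted p = 0.0419), a fit in which the remaining *Meioc*-null library is assumed to vary like the wild-type pair. Also with no block, *Mga* in cluster 7 was called under a filter that asks for a UMI in at least 25% of the cells of 1 genotype (adjusted p = 0.023) and with no filter (0.0275), and *E2f6* in cluster 6 with no filter (0.0226). Stage markers differed between genotypes here as well. In cluster 6 the 4 preleptotene markers, *Meioc* among them, summed to 1296 and 1496 CPM in the wild-type libraries against 1935 and 1972 CPM, and the 8 early-spermatocyte markers to 2085 and 1839 CPM against 1629 and 1591 CPM. In cluster 7 these sums were 3140 and 3023 CPM against 3354 and 3253 CPM and 3669 and 3424 CPM against 3793 and 3909 CPM. The markers in the preleptotene sum of cluster 6 did not all move alike. *Meioc* overlapped (456 and 513 CPM in wild type against 536 and 506 CPM) and *Gm4969* was higher in both wild-type libraries. The part of the stage markers in the values of *E2f6* and *Mga* was not tested.

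In the early-spermatocyte-like cluster 8, *Mga*, *Max* and *L3mbtl2* were lower in wild type than in *Meioc*-null cells, and none of the 10 genes was called higher in wild type. These 3 of 10 stand beside 34.3% of all genes called in that cluster, 18.9% lower and 15.4% higher in wild type. *Mga* held 189 and 180 CPM in the wild-type libraries and 322 and 271 CPM in the *Meioc*-null libraries (log2 fold change -0.63 ± 0.12, adjusted p = 0.000491). *Max* held 28.6 and 23.7 CPM against 52.5 and 39.3 CPM (-0.77 ± 0.17, adjusted p = 0.00142), and *L3mbtl2* 54.8 and 49.4 CPM against 73.9 and 68.0 CPM (-0.40 ± 0.14, adjusted p = 0.0302). For each of the 3 genes every wild-type library lay below both *Meioc*-null libraries. That alone carries no weight, since the share of all genes so separated is not given here.

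The call of *L3mbtl2* in cluster 8 was lost on leaving out any 1 library, with adjusted p = 0.056 and 0.177 without the first or the second wild-type library and 0.0848 and 0.104 without the first or the second *Meioc*-null library, and in DESeq2 (0.16). With 8 germ-cell clusters in place of 10, 99.9% of the wild-type cells of cluster 7 and 55.2% of those of cluster 8 fell in one cluster. There *Mga* (-0.39, adjusted p = 0.0757), *Max* (-0.00, adjusted p = 0.991) and *L3mbtl2* (-0.06, adjusted p = 0.763) were not called. The replicate block added *Cbx3*, lower in wild type (124 and 102 CPM against 162 and 129 CPM, log2 fold change -0.31, adjusted p = 0.00595 with and 0.0619 without the block), and *Rnf2*, higher in wild type (65.5 and 59.6 CPM against 58.5 and 43.9 CPM, 0.34, adjusted p = 0.00932 with and 0.0765 without it). The block called 48.6% of all genes. Without *Meioc*-null replicate 2, *Cbx3* (-0.39, adjusted p = 0.0365) and *Ring1* (-0.90, adjusted p = 0.0224) were called lower in wild type with no block, and without *Meioc*-null replicate 1 *Rnf2* was called higher (0.49, adjusted p = 0.0399).

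In cluster 9 the genes fell on both sides. *E2f6*, *Mga* and *Max* were lower in wild type, and *Pcgf6*, *Rnf2*, *Tfdp1* and *Wdr5* were higher. The 7 of 10 stand beside 56.2% of all genes called in that cluster, 28.9% lower and 27.3% higher in wild type, so most genes of the cluster differed. *L3mbtl2*, *Cbx3* and *Ring1* were not called.

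*E2f6* had the largest difference. It held 4.26 and 3.20 CPM in the wild-type libraries (22 and 38 UMIs) and 17.7 and 16.5 CPM in the *Meioc*-null libraries (57 and 80 UMIs), so that the log2 fold change was -2.18 ± 0.27 (adjusted p = 9.80e-08). The higher wild-type library was well below the lower *Meioc*-null library. With the replicate block no call of the cluster was lost and none was added, beside 64.4% of all genes called. Between clusters 8 and 9 the wild-type mean went from 4.45 to 3.73 CPM and the *Meioc*-null mean from 7.32 ± 1.7 to 17.1 ± 0.84 CPM (SD, n = 2). Under the 25% filter *E2f6* was not tested in this cluster, since 4.40% of wild-type and 22.7% of *Meioc*-null cells held one. With 8 germ-cell clusters in place of 10 its log2 fold change was -1.54 (adjusted p = 4.31e-07). The cluster used there also took in cells from outside cluster 9, with 534 and 1402 wild-type cells in place of 363 and 932.

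*Mga* held 166 and 140 CPM in wild type against 231 and 201 CPM in *Meioc*-null cells (-0.44 ± 0.11, adjusted p = 0.00187). *Max*, its partner, held 26.3 and 23.7 CPM against 34.2 and 41.3 CPM (-0.56 ± 0.16, adjusted p = 0.00408). Both genes were lower in each wild-type library than in each *Meioc*-null library. The call of *Mga* was lost without wild type replicate 2 (-0.34, adjusted p = 0.0811), and that of *Max* without *Meioc*-null replicate 2 (-0.35, adjusted p = 0.152) and in DESeq2 (adjusted p = 0.0609).

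*Pcgf6* held 144 and 127 CPM in wild type against 52.2 and 48.9 CPM in *Meioc*-null cells (1.48 ± 0.12, adjusted p = 2.87e-11), and *Rnf2* 107 and 103 CPM against 55.0 and 57.2 CPM (0.96 ± 0.11, adjusted p = 7.13e-08). *Tfdp1* held 45.7 and 42.3 CPM against 30.8 and 22.5 CPM (0.80 ± 0.15, adjusted p = 4.37e-05). In each of these 3 genes, whose wild-type means were also higher in cluster 9 than in cluster 8, both wild-type libraries lay above both *Meioc*-null libraries. *Wdr5* held 95.0 and 69.9 CPM in wild type against 75.5 and 51.6 CPM in *Meioc*-null cells (0.44 ± 0.14, adjusted p = 0.0152), so its libraries overlapped, and replicate 1 was above replicate 2 in both genotypes. Its call was lost without wild type replicate 1 (0.28, adjusted p = 0.106), without *Meioc*-null replicate 2 (0.21, adjusted p = 0.217) and in DESeq2 (adjusted p = 0.0596).

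The 3 genes without a call in cluster 9 had smaller or less even differences. *L3mbtl2* held 59.6 and 50.5 CPM in wild type against 54.4 and 55.1 CPM in *Meioc*-null cells (0.05 ± 0.12), and *Cbx3* 143 and 132 CPM against 132 and 127 CPM (0.15 ± 0.11). *Ring1* held 14.1 and 11.4 CPM against 24.9 and 10.7 CPM (-0.38 ± 0.28), so its 2 *Meioc*-null libraries lay on either side of wild type. Without *Meioc*-null replicate 2 *Ring1* was called lower in wild type (-0.88, adjusted p = 0.00181). *Ring1* was higher in replicate 1 than in replicate 2 of both genotypes in 12 of the 12 cell groups tested, and *Wdr5* in 12 of 12.

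**Figure D2:**
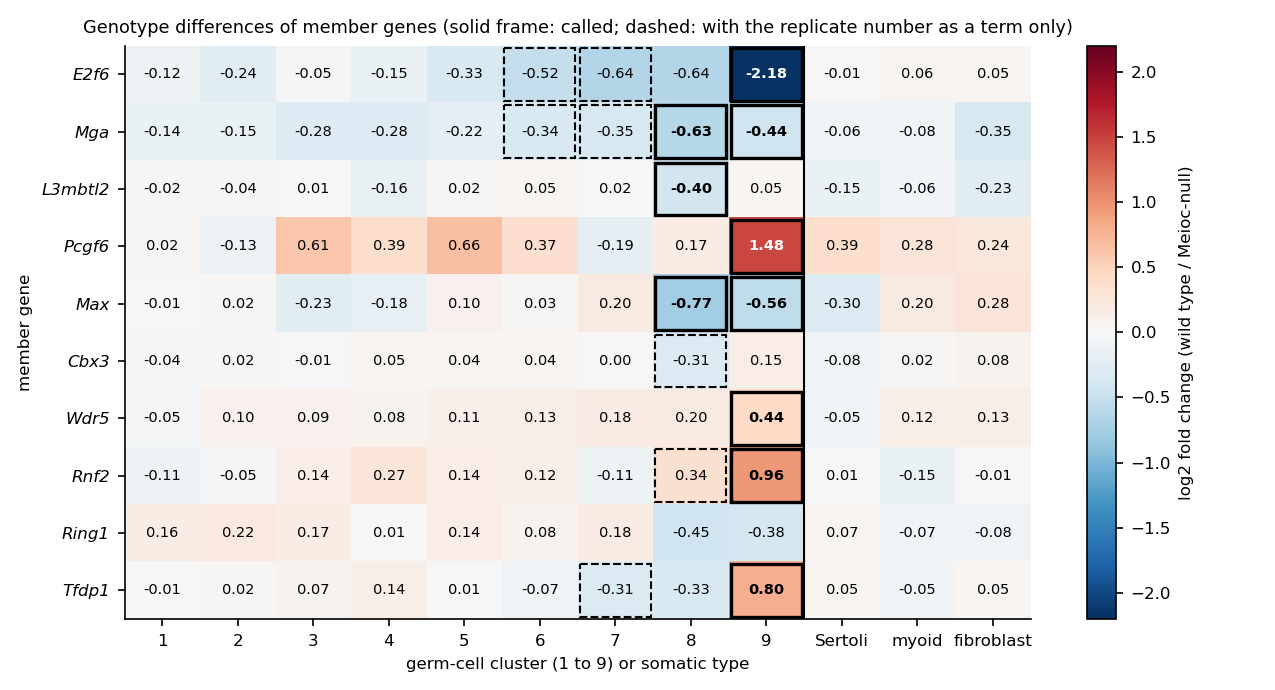
Heat map of the log2 fold change (wild type/*Meioc*-null, colour scale, value printed in each cell) of each PRC1.6 gene (rows) in germ-cell clusters 1 to 9 and the 3 somatic types (columns), with solid frames for calls and dashed frames for calls made only with the replicate number in the fit. Solid frames stand in clusters 8 and 9 only, where *E2f6* reaches -2.18 and *Pcgf6* 1.48 in cluster 9.

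All 10 calls had the same sign in both same-numbered pairs of libraries. For every call but that of *Wdr5* in cluster 9, the libraries of the 2 genotypes did not overlap. For those calls the same sign had to follow and is no separate support. The share of all genes with libraries so separated in clusters 8 and 9 is not given here either, so the separation alone carries no weight. Whether the genotype difference in a late cluster differed from that in cluster 1 was tested as an interaction in edgeR, with the library as a block. In cluster 8 it differed for 3 of 10 genes (*Mga*, *Max* and *Rnf2*, beside 20.7% of all genes) and in cluster 9 for 7 of 10 (*E2f6*, *Tfdp1*, *Max*, *Pcgf6*, *Rnf2*, *Cbx3* and *Wdr5*, beside 39.4%). The largest differences of log2 fold changes were -1.97 for *E2f6* (adjusted p = 8.53e-14), 1.55 for *Pcgf6* (adjusted p = 1.00e-26) and 1.16 for *Rnf2* (adjusted p = 2.68e-13), all of cluster 9 against cluster 1. *Mga* in cluster 9 did not pass that test (-0.19, adjusted p = 0.209). In clusters 2 to 7 the count was 0 by the same edgeR test, beside 0.0563%, 0.0856%, 0.1%, 0.241%, 2.43% and 14.5% of all genes in that order, with 0 to 3 genes per cluster at an unadjusted p under 0.05.

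Stage markers moved with the genotype in clusters 8 and 9 as well. The 4 preleptotene markers summed to 1028 and 911 CPM in the wild-type libraries of cluster 8 and to 2397 and 2448 CPM in the *Meioc*-null libraries, and to 496 and 516 CPM against 1252 and 1265 CPM in cluster 9. All 4 (*Stra8*, *Gm4969*, *Rec8* and *Meioc*, the targeted gene itself) were lower in each wild-type library in both clusters. Without *Meioc* the sums were 418 and 355 CPM against 1566 and 1639 CPM in cluster 8 and 24.0 and 25.8 CPM against 635 and 584 CPM in cluster 9. The 7 differentiating-spermatogonia markers summed to 262 and 235 CPM in wild type against 932 and 807 CPM in *Meioc*-null cells of cluster 9, with 4 of 7 lower in each wild-type library. The 8 pachytene markers summed to 796 and 715 CPM against 279 and 291 CPM, with 5 of 8 higher in wild type, *Mns1* lower and *Ccna1* at 0. The early-spermatocyte markers summed to 5030 and 4518 CPM against 6124 and 5509 CPM, 4 of 8 higher and 4 of 8 lower. Cells of cluster 9 held a median of 11966 and 11674 UMIs in the wild-type libraries against 13615 and 16511 UMIs in the *Meioc*-null libraries, at a median of 7.19 to 7.44% mitochondrial UMIs. The part of these differences in the values of the PRC1.6 genes was not tested.

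**Figure D3:**
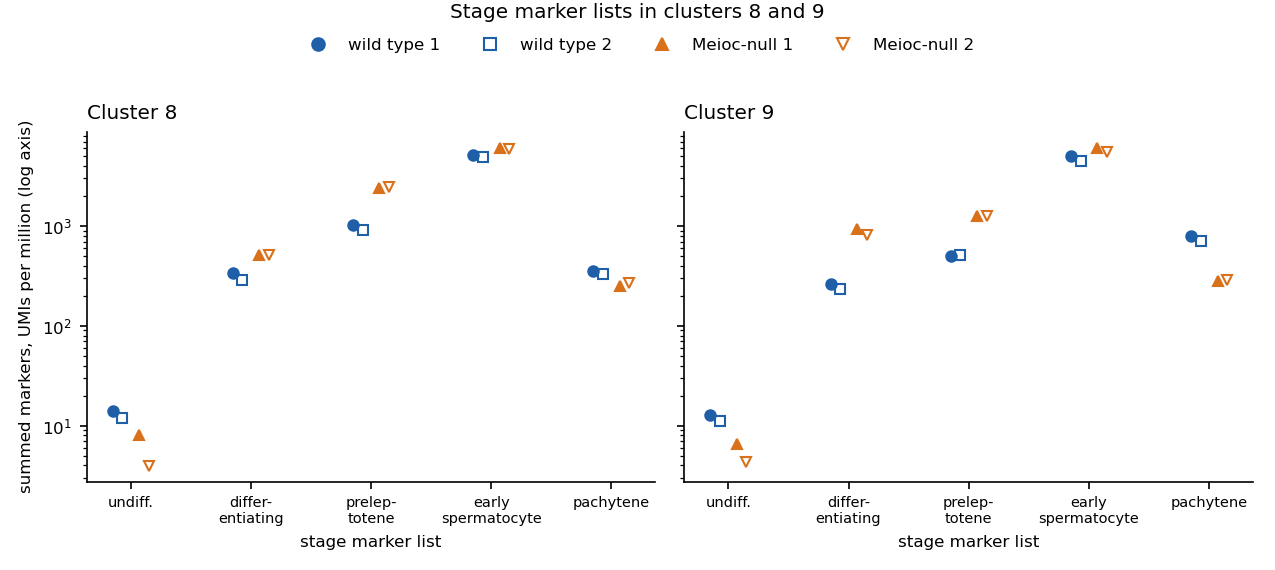
Summed CPM (log y axis) of 5 stage marker lists (x axis, *Meioc* included in the preleptotene list) in cluster 8 (left panel) and cluster 9 (right panel), each point 1 library of wild type or *Meioc*-null. The preleptotene sum of the *Meioc*-null libraries (2397 and 2448 CPM in cluster 8) lies above that of wild type (1028 and 911 CPM), and the pachytene sum lies below it (279 and 291 CPM against 796 and 715 CPM in cluster 9).

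In somatic cells no difference between genotypes was called. Over the 10 genes and 3 somatic types the edgeR calls were 0 of 30, with 0 at an unadjusted p under 0.05, 0 in DESeq2 and 0 with the replicate block, which called 0.709%, 1.38% and 0.705% of all genes in Sertoli-like, peritubular-myoid-like and interstitial-fibroblast-like cells. The log2 fold changes ran from -0.35 (*Mga* in interstitial-fibroblast-like cells, 77.3 and 76.6 CPM against 115 and 85.7 CPM) to 0.39 (*Pcgf6* in Sertoli-like cells, 36.4 and 35.1 CPM against 32.4 and 24.0 CPM). Of all genes 0.00933% were called in Sertoli-like, 0.0157% in peritubular-myoid-like and 0.0282% in interstitial-fibroblast-like cells. The genotype difference in cluster 9 differed from that in Sertoli-like cells for 5 of 10 genes, namely *E2f6*, *Pcgf6*, *Wdr5*, *Rnf2* and *Tfdp1*, beside 25.5% of all genes.

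Of 8 other PRC1.6 components 0 were called in clusters 1 to 7, 1 was lower in wild type in cluster 8, and in cluster 9 there were 2 lower and 1 higher. These 1 of 8 and 3 of 8 lie below the 34.3% and 56.2% of all genes called in clusters 8 and 9. With the replicate block 1 was lower in cluster 6, 1 lower and 2 higher in cluster 7, 3 lower in cluster 8, and 2 lower and 2 higher in cluster 9. These stand beside 13.5%, 41%, 48.6% and 64.4% of all genes called with the block in that order. *Ehmt1*, a histone H3 lysine 9 methyltransferase, held 55.6 and 53.1 CPM in wild type against 117 and 91.5 CPM in *Meioc*-null cells of cluster 8 (log2 fold change -0.88 ± 0.13, adjusted p = 5.97e-05) and was also lower in cluster 9 (-0.78 ± 0.14). With 8 clusters, where clusters 7 and 8 mostly fell together, the former was -0.42 (adjusted p = 0.0388). *Tfdp2*, which encodes the other main DP partner of E2F proteins, was lower in wild type in cluster 9 (53.4 and 61.4 CPM against 107 and 112 CPM, -0.86 ± 0.12, adjusted p = 7.13e-07), whereas *Tfdp1* was higher there. The deacetylase gene *Hdac1* was higher in wild type in cluster 9 (0.36 ± 0.11, adjusted p = 0.00952), a call lost without wild type replicate 2 (0.35, adjusted p = 0.0656).

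Among 15 subunits of other PRC1 forms, 3 were lower and 2 higher in wild type in cluster 7, 6 lower and 3 higher of 14 tested in cluster 8, and 5 lower and 5 higher of 13 tested in cluster 9, beside 18.9%, 34.3% and 56.2% of all genes called in clusters 7, 8 and 9. The block called 1 lower in cluster 5, 3 lower and 1 higher in cluster 6, 4 lower and 4 higher in cluster 7, 6 lower and 5 higher in cluster 8, and 5 lower and 5 higher in cluster 9. Of all genes the block called 4.78%, 13.5%, 41%, 48.6% and 64.4% in clusters 5 to 9 in that order. *Pcgf2*, the alternative of *Pcgf6* in canonical PRC1, held 3.29 and 2.10 CPM in wild type against 21.1 and 17.1 CPM in *Meioc*-null cells of cluster 9 (-2.83 ± 0.28, adjusted p = 2.79e-09). It was also lower in wild type in clusters 7 (-0.83) and 8 (-2.20). *Auts2*, of the PCGF3 and PCGF5 complexes, was lower in clusters 8 (-0.63) and 9 (-2.12). The Polycomb chromobox gene *Cbx8* was lower in cluster 8 (-1.61), at no more than 10.1 CPM in any library. Leaving out 1 library ended the calls of *Auts2* in cluster 8 (adjusted p = 0.177 without wild type replicate 2), of *Cbx8* in cluster 8 (adjusted p = 0.0592 without wild type replicate 2) and in cluster 9 (adjusted p = 0.118 without wild type replicate 1). With 8 clusters *Pcgf2* in cluster 8 was -1.18 (adjusted p = 0.00216), and *Auts2* (-0.07, adjusted p = 0.802) and *Cbx8* (-0.42, adjusted p = 0.187) lost their calls there. *Cbx8* in cluster 9 was also lost in DESeq2 (adjusted p = 0.118) and with no doublet removal (adjusted p = 0.0921).

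Of 9 genes of the MAX network, which encode other partners of MAX, 8 were tested in cluster 7, where 1 was lower in wild type, 7 in cluster 8, where 4 were lower, and 6 in cluster 9, where 3 were lower. Of all genes 18.9% were called either way in cluster 7, 18.9% were called lower in cluster 8 and 28.9% lower in cluster 9. DESeq2 called 0 in cluster 7, 1 in cluster 8 (*Mxd4*, with 2 of the 7 given no adjusted p) and 3 in cluster 9. The block called 4 lower in each of clusters 7 and 8 and 3 lower in cluster 9, beside 41%, 48.6% and 64.4% of all genes called either way. The call in cluster 7 was *Mnt* (-0.999, adjusted p = 0.0414), which was lost on leaving out any 1 library (adjusted p = 0.0644 to 0.214) and in DESeq2 (0.14). None was called higher in clusters 1 to 9. *Mxd4* held 59.5 and 50.5 CPM in wild type against 158 and 123 CPM in *Meioc*-null cells of cluster 8 (-1.31 ± 0.13, adjusted p = 6.40e-07), and *Mycn* 0.967 and 0.421 CPM against 6.52 and 3.72 CPM in cluster 9 (-2.93 ± 0.54, adjusted p = 4.64e-05). In that cluster *Mycn* met the limit of 40 UMIs for testing only with the *Meioc*-null libraries, where it was higher, so its call carries little weight. With 8 clusters *Mxd4* in cluster 8 was -0.43 (adjusted p = 0.0495). *Mxd3* (-2.38) and *Mnt* (-1.06) were lower in cluster 8 at low levels and lost their calls with 8 clusters (adjusted p = 0.0951 and 0.0591), the latter with adjusted p = 0.238 without wild type replicate 2 and 0.105 without *Meioc*-null replicate 1. Median log2 fold changes of the tested genes of the list, *Mycn* in cluster 9 among them, were -1.06 in cluster 8 and -0.40 in cluster 9, against -0.03 and -0.02 over all genes.

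Of 7 other E2F genes, 1 was lower and 1 higher in wild type in cluster 7, 2 lower and 1 higher in cluster 8, and 4 lower and 1 higher of 6 tested in cluster 9, again beside 18.9%, 34.3% and 56.2% of all genes called. The block called 1 higher in cluster 3, 2 lower in cluster 6, 2 lower and 1 higher in cluster 7, 4 lower and 1 higher in cluster 8, and 4 lower and 2 higher in cluster 9. Of all genes the block called 1.5% in cluster 3 and 13.5%, 41%, 48.6% and 64.4% in clusters 6 to 9 in that order. *E2f1*, an activator, was higher in wild type in cluster 7 (79.6 and 59.5 CPM against 49.8 and 35.8 CPM, 0.77 ± 0.14, adjusted p = 0.00314) and in cluster 8 (89.5 and 70.3 CPM against 34.8 and 29.8 CPM, 1.35 ± 0.15, adjusted p = 1.95e-06). *E2f3*, another activator, was lower in wild type in cluster 9 (10.8 and 8.76 CPM against 26.4 and 29.5 CPM, -1.49 ± 0.21, adjusted p = 8.18e-07). *E2f8*, an atypical repressor, was lower there too, with under 1 CPM in each wild-type library (-3.04 ± 0.55). It met the limit of 40 UMIs for testing only with the *Meioc*-null libraries, where it was higher, so its call carries little weight. The smaller call of *E2f1* in cluster 9 (-0.62) was lost without wild type replicate 2 (-0.29, adjusted p = 0.364) or *Meioc*-null replicate 2 (-0.42, adjusted p = 0.19), and that of *E2f2* in cluster 8 (-1.53) without wild type replicate 2 (-1.04, adjusted p = 0.308). Both were also lost in DESeq2 (adjusted p = 0.137 and 0.128) and with 8 clusters, where *E2f1* was 0.083 (adjusted p = 0.692) and *E2f2* -0.53 (adjusted p = 0.423).

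Of 19 germline genes that PRC1.6 is known to silence outside the germ line, 3 were called higher in wild type in cluster 6, and 10 were called lower and 2 higher in cluster 9. The list held genes from several steps of germ-cell development, among them the meiotic cohesin gene *Stag3* and *Gm4969*, which encodes a partner of STRA8. The 3 calls of cluster 6 stand beside 1.62% of all genes, and none of the 19 had a negative log2 fold change, with a median of 0.317 against 0.00230 over all genes. The stage marker sums given above for cluster 6 also differed between genotypes, and their part in this was not tested. In cluster 5 none of the 18 tested was called, although all 18 had positive log2 fold changes (median 0.237), with 6 at an unadjusted p under 0.05, 9 called with the replicate block (beside 4.78% of all genes) and 1 by DESeq2 (*Stag3*). Over all 11673 genes tested there 49.4% had negative log2 fold changes, the median was 0.0031 and 524 were at an unadjusted p under 0.05. In cluster 9 the 12 of 19 called stand beside 56.2% of all genes, 28.9% lower and 27.3% higher in wild type, and the median was -0.560 against -0.0210 over all genes. The replicate block called 12 genes higher and 0 lower in cluster 6, 7 higher and 2 lower in cluster 7, 6 higher and 9 lower in cluster 8, and 4 higher and 11 lower in cluster 9, beside the shares of all genes given above for the block.

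*Stag3* held 281 and 280 CPM in wild type against 165 and 162 CPM in *Meioc*-null cells of cluster 6 (0.81 ± 0.12, adjusted p = 0.00603), and its libraries did not overlap. *Spata22*, a recombination gene, held 4.00 and 5.00 CPM against 0.533 and 1.34 CPM there (2.29 ± 0.45, adjusted p = 0.0272), a call lost without *Meioc*-null replicate 1 (1.69) and with no doublet removal (1.44, adjusted p = 0.246). It met the limit of 40 UMIs for testing only with the wild-type libraries, where it was higher. *Gm4969* held 33.1 and 47.0 CPM in wild type against 15.5 and 19.4 CPM in *Meioc*-null cells of cluster 6, where edgeR did not call it without the block (1.23, adjusted p = 0.0536) while the block and DESeq2 did, and 5.22 and 5.56 CPM against 100 and 85.7 CPM in cluster 9 (-4.01 ± 0.15, adjusted p = 1.28e-17). Its direction was thus opposite in the 2 clusters, which was not tested as such. *Gm4969* is also 1 of the 4 preleptotene markers above.

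*Zcwpw1*, a histone reader of meiotic recombination, was lower in wild type in cluster 9 (189 and 190 CPM against 584 and 606 CPM, -1.59 ± 0.14, adjusted p = 1.80e-10). So was the testis tubulin gene *Tuba3a* (102 and 58.6 CPM against 352 and 256 CPM, -1.88 ± 0.29, adjusted p = 0.00571), whose reads cannot be cleanly told from those of its near-identical copy *Tuba3b*. In cluster 8, 6 of 19 were lower and 2 higher in wild type, beside 34.3% of all genes called, and in cluster 7, 1 was lower, beside 18.9%. *Gm4969* in cluster 8 was lower in wild type (82.9 and 88.6 CPM against 124 and 120 CPM, -0.45), with adjusted p = 0.0662 without wild type replicate 1 and 0.0516 without *Meioc*-null replicate 2. It lost the call in DESeq2 (adjusted p = 0.0578), and its direction turned with 8 clusters (0.14) and at a mitochondrial limit of 5% (0.31). In the somatic types none of the 17 tested was called by edgeR without the block, with 6, 2 and 6 at an unadjusted p under 0.05 in Sertoli-like, peritubular-myoid-like and interstitial-fibroblast-like cells and 1 call by DESeq2 (*Sycp1* in peritubular-myoid-like cells). With the block edgeR called 1 lower in wild type in Sertoli-like, 5 higher in peritubular-myoid-like and 4 higher in interstitial-fibroblast-like cells. Their medians were -0.257, 0.664 and 0.719, and free germ-cell RNA moved with the last 2. It stood at 4.19 and 1.94% of the germ-cell level in the wild-type libraries against 3.05 and 1.40% in the *Meioc*-null libraries of peritubular-myoid-like cells, and at 4.42 and 2.71% against 3.15 and 1.78% in interstitial-fibroblast-like cells, higher in wild type within each replicate number. In Sertoli-like cells it was 9.43 and 5.20% against 9.43 and 8.17%. The 5 markers behind this measure include *Ddx4*, *Dazl* and *Mael*, which are also among the germline genes, so it and the medians share genes. The part of free germ-cell RNA in these values was not tested.

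**Figure D4:**
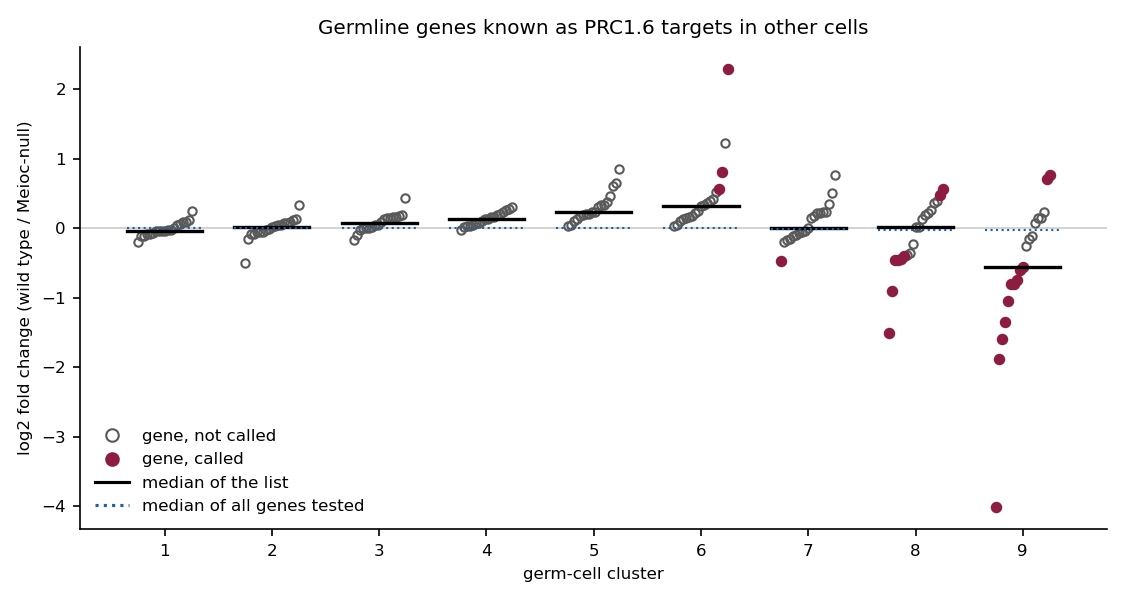
Log2 fold change (wild type/*Meioc*-null, y axis) of the germline genes that PRC1.6 silences outside the germ line, by germ-cell cluster (x axis), each point 1 gene (filled where called), with the median of the list (solid line) and of all genes tested (dotted line). All points of cluster 6 lie at or above 0 (median 0.317), and the median of cluster 9 is -0.560.

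Promoter sequence was read for the PRC1.6 genes and for these germline genes because both DNA-binding arms of the complex recognise short motifs. The 300-base windows from 250 bases before to 50 bases after the RefSeq transcription start (GRCm38.p6) were searched on both strands for the E2F core GCGGGA and for the E-box CACGTG. The E-box is its own reverse complement and can share its end base with an E2F core. All 10 PRC1.6 genes had a window. The E2F core was in 4 of them (*E2f6*, *Wdr5*, *Rnf2* and *Tfdp1*), the E-box in 2 (*Max* and *Tfdp1*), and both in *Tfdp1* alone. Of the promoters of 27025 genes, 20.0% held the E2F core, 7.24% the E-box and 2.05% both. Of the 19 germline genes, 12 held the E2F core (63.2%), 10 the E-box (52.6%) and 8 both (42.1%), namely *Stag3*, *Slc25a31*, *Ddx4*, *Mael*, *Gm4969*, *Sycp3*, *Sycp1* and *Hormad1*. A match describes the sequence and not a bound site.

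The windows shown are those of *E2f6*, with the largest genotype difference of the complex, of *Tfdp1* and *Max*, the members with an E-box, and of *Stag3* and *Gm4969*, the germline genes with both motifs and the clearest differences in clusters 6 and 9. They lie at chr12:16810715-16811014 (plus strand, *E2f6*), chr8:13338501-13338800 (plus strand, *Tfdp1*), chr12:76962199-76962498 (minus strand, *Max*), chr5:138280259-138280558 (plus strand, *Stag3*) and chr7:19118295-19118594 (minus strand, *Gm4969*). Capitals mark the motifs, an E2F core of the opposite strand being read as TCCCGC, and each sequence is written 5′ to 3′ on the strand of its gene:
E2f6: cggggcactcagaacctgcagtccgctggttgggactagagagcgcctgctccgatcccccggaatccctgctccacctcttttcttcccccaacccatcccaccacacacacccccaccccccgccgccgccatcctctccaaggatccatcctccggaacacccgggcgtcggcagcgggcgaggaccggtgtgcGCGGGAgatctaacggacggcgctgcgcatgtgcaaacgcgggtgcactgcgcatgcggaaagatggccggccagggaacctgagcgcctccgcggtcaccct
Tfdp1: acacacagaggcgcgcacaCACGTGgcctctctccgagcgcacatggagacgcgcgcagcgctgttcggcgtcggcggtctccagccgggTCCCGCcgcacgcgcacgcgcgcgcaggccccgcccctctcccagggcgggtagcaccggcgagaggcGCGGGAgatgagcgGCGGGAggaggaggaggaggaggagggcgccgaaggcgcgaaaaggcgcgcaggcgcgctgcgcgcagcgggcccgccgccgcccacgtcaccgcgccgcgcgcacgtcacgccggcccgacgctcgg
Max: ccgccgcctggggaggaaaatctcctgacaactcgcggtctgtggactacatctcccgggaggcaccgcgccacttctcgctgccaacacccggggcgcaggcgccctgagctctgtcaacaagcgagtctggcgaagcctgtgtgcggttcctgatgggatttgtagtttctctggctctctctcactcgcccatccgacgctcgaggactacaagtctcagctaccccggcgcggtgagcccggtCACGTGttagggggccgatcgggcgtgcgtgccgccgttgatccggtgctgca
Stag3: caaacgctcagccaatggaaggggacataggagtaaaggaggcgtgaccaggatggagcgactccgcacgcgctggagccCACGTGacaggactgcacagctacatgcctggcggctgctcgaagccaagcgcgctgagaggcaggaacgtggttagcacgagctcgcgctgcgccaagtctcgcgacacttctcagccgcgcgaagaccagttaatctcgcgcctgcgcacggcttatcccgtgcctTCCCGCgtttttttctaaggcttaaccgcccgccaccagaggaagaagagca
Gm4969: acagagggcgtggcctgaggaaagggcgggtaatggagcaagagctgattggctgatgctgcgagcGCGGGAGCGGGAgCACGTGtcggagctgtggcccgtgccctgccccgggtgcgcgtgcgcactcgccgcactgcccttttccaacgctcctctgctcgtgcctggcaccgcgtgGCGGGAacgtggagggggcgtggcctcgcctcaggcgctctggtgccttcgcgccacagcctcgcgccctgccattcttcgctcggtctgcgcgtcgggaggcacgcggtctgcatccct
In *E2f6* the single E2F core ended 48 bases before the start, and in *Max* the E-box spanned the start. In *Gm4969* 2 adjoining E2F cores stood 1 base from an E-box with another core further downstream, and in *Stag3* the E2F core spanned the start with an E-box 165 bases before it. *Tfdp1* held 3 E2F cores and 1 E-box.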

How the data were processed

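Testes of P15 mice were dissociated and single cells captured with 10x Genomics 3′ v3.1 chemistry, 1 library per pup, 2 wild type and 2 *Meioc*-null. The authors deposited, per library, the raw UMI counts of every gene in every called cell barcode, made with Cell Ranger 4.0.0 on the mm10 reference (GRCm38), with no later filter. Cell Ranger counts only reads that map to 1 gene. The submitters' processing notes also name Seurat, whose output was not used here. Libraries held 158291903 to 190455307 UMIs.

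Barcodes with more than 1000 detected genes and under 10% mitochondrial UMIs were kept. Doublets were scored per library against simulated doublets and 0.8% of barcodes per 1000 were removed. Wild-type cells were clustered (2000 variable genes, 30 principal components, Leiden, leidenalg 0.10.2) without the listed genes, *Meioc*, *Stra8*, *Rec8* and cell cycle genes. *Meioc*-null cells took the cluster of most of their 30 nearest wild-type cells, so a cluster of *Meioc*-null cells alone could not form. The lowest resolution with at least 10 germ-cell clusters was used. Clusters were named from marker lists. Sertoli-like cells lay mostly in a shallow cluster, named because *Rhox8* was among its leading genes. Leydig-like cells (0 to 81 per library) and shallow germ cells were not tested.

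Within each cluster UMI counts were added up per library and compared by edgeR 4.0.16 (quasi-likelihood, TMM, genotype as the only term) over genes with at least 40 UMIs in the 4 libraries, adjusted within the cluster by the Benjamini-Hochberg method. A call needed an adjusted p under 0.05 and an absolute log2 fold change above 0.1. Interactions with cluster 1 or Sertoli-like cells had library as a block. DESeq2 1.42.0, other normalization, filters, adjustment, doublet and mitochondrial limits, placing, 8 clusters, a replicate block and leaving out each library were tried as alternatives. Per the labels each batch held 1 littermate pair, but not which replicate numbers it had. Deviations of same-numbered libraries from the genotype means correlated at 0.247 to 0.519 over genes, and the replicate number was taken to pair the samples. Other scaling moved the median log2 fold change of all genes by at most 0.0292.

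All 10 genes were named. Of each other list, up to 4 called genes with the largest absolute log2 fold change were named, and for each PRC1.6 gene the 3 genes with the most similar course over clusters. The values of 1 listed gene are not reported here. *Slc25a31*, *Ddx4*, *Mael*, *Sycp3*, *Sycp1*, *Hormad1*, *Tuba3b* and *Stag3* were named for their promoter or level after their values were seen. The members, lists and markers were chosen with earlier results of these data known. Gene positions are from GENCODE vM21 (32235 of 32285 IDs matched) and promoters from RefSeq. The test was tested on simulated data: in cluster 7, with 11514 genes, it recovered 82.8% of genes changed by 1 log2 unit and 17.2% of those changed by 0.5. In Sertoli-like cells these were 83.0% and 11.0%. The simulated counts had the same fixed spread for all genes, no pair effect and 200 changed genes, so recovery in the real data can differ. *Meioc* 3′ tags were found in both genotypes (610 and 556 CPM against 831 and 808 CPM in wild-type and *Meioc*-null cells of cluster 8) and do not check the genotype labels, since the tags need not lie in the deleted part. Clusters, and correlations across them, were described without a test.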

Additional observations from a re-analysis of the deposited data

Results flagged for a closer look

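The genotype difference (log2 fold change, wild type/*Meioc*-null) of a PRC1.6 gene in a late germ-cell cluster differed, by the edgeR interaction test, from its difference in undifferentiated spermatogonia (cluster 1) in 10 instances and in cluster 9 from that in Sertoli-like cells in 5. The 10 instances were 3 of 10 genes in cluster 8, beside 20.7% of all genes, and 7 of 10 in cluster 9, beside 39.4%. The 5 against Sertoli-like cells stand beside 25.5% of all genes. *E2f6* differed by -1.97 between clusters 9 and 1 (adjusted p = 8.53e-14) and by -2.00 between cluster 9 and Sertoli-like cells (adjusted p = 0.00035). *Pcgf6* differed by 1.55 (adjusted p = 1.00e-26) and 1.20 (adjusted p = 0.000108), and *Rnf2* by 1.16 (adjusted p = 2.68e-13) and 1.05 (adjusted p = 0.000134). *Tfdp1* differed by 0.92 (adjusted p = 1.02e-07) and 0.89 (adjusted p = 0.00931), and *Wdr5* by 0.59 (adjusted p = 0.000126) and 0.64 (adjusted p = 0.0277). *E2f6*, *Pcgf6*, *Rnf2*, *Tfdp1* and *Wdr5* passed against cluster 1 without any 1 of the 4 libraries. At a mitochondrial limit of 5%, which leaves few cells, *Pcgf6* passed against cluster 1 (1.37, adjusted p = 0.0481) and none passed against Sertoli-like cells, with *E2f6* at -0.88 (adjusted p = 0.667), *Rnf2* at 1.29 (0.136), *Tfdp1* at 0.92 (0.445) and *Wdr5* at 1.05 (0.179) against cluster 1. Against Sertoli-like cells *Tfdp1* did not pass without wild type replicate 2 (adjusted p = 0.129) or *Meioc*-null replicate 2 (0.0915). *Wdr5* did not pass there without wild type replicate 2 (0.132), *Meioc*-null replicate 1 (0.0601) or *Meioc*-null replicate 2 (0.252), and with no doublet removal it was 0.35 (0.17).

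Smaller differences against cluster 1 were those of *Max* in cluster 8 (-0.70, adjusted p = 0.00805) and cluster 9 (-0.44, adjusted p = 0.0349), of *Mga* in cluster 8 (-0.44, adjusted p = 0.0196), of *Rnf2* in cluster 8 (0.50, adjusted p = 0.0324) and of *Cbx3* in cluster 9 (0.29, adjusted p = 0.0464). *Max* in cluster 8 did not pass without wild type replicate 2 (adjusted p = 0.121) or *Meioc*-null replicate 1 (0.188), and *Max* in cluster 9 passed only without *Meioc*-null replicate 1 (0.00906) among the 4 that leave out a library. With no doublet removal *Max* in cluster 9 did not pass (-0.39, adjusted p = 0.0653), and at the 5% limit its difference had the opposite sign (0.53, adjusted p = 0.841). None of these smaller differences passed at the 5% limit, and *Rnf2* in cluster 8 and *Cbx3* in cluster 9 also missed it with no filter (adjusted p = 0.0672 and 0.102) or 15 neighbours (0.0539 and 0.0534). *Mga* in cluster 8 did not pass without wild type replicate 1 (0.139) or wild type replicate 2 (0.0516). *Rnf2* in cluster 8 (0.0647 to 0.27) and *Cbx3* in cluster 9 (0.067 to 0.299) did not pass without any 1 library. Without *Meioc*-null replicate 2 the test also called *Ring1* in clusters 8 (-0.99, adjusted p = 0.0251) and 9 (-0.87, adjusted p = 0.0204) and *Tfdp1* in cluster 8 (-0.53, adjusted p = 0.0306). Stage markers differed between genotypes in clusters 8 and 9, and their part in these differences was not tested.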

How the results depend on the processing

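With 2 pups per genotype, a gene's own spread rests on 2 libraries per genotype, and edgeR moderates it by the spread of all genes tested. The p-values are thus no measure of a gene's spread between pups alone. The values of *E2f6* in cluster 9 rest on 22 to 80 UMIs per library. Against 10 calls of PRC1.6 genes in germ cells, the count was 17 with the replicate block. It was 3 with the Bonferroni adjustment (*E2f6*, *Pcgf6* and *Rnf2* in cluster 9). At a mitochondrial limit of 5% it was 3 (*Mga* in clusters 8 and 9 and *Pcgf6* in cluster 9). Under the other alternatives that kept all libraries it was within 1.5 times 10. As totals these counts can include new calls beside lost ones. Leaving out 1 library ended some of the 10 calls and added others, as given above. The germline genes had 24 calls (17 lower and 7 higher in wild type), 60 with the block (22 lower and 38 higher), 29 without *Meioc*-null replicate 2 (14 lower and 15 higher), 2 with Bonferroni and 15 at the 5% limit. The other listed genes had 46 calls, 73 with the block, 9 with Bonferroni and 2 at the 5% limit. These counts, like those of the PRC1.6 genes, are totals over clusters. The shares of all genes called are given above by cluster, without and with the block, and are not given for the other alternatives. Interactions with cluster 1 numbered 10, and 1 at the 5% limit. Leaving out 1 library ended some of these and added others, as given above. The 5% limit left 2041 of 19797 germ cells, so that 4 of the 10 calls had too few UMIs to be tested, and *Rnf2* (0.54, adjusted p = 0.338), *Tfdp1* (0.60, adjusted p = 0.507) and *Wdr5* (0.47, adjusted p = 0.479) in cluster 9 lost theirs. The block, which fits the same-numbered pairs, ended none of the 10 calls of PRC1.6 genes and added 7. Somatic calls of the 10 PRC1.6 genes stayed at 0 under every alternative run. Of 554 recomputed values of single called genes 450 kept direction and call, 101 lost the call and 3 reversed: *Gm4969* in cluster 8 (0.31 at the 5% limit, 0.14 with 8 clusters) and *E2f1* in cluster 9 (0.083 with 8 clusters), and the cause was not tested.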
